A study of Mus musculus with 8 samples.

Results

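Sebum, the oily secretion that coats skin and hair, is made by sebaceous glands, and the 10 genes described here encode enzymes, a lipid droplet protein and a receptor of the lipid-making cells of those glands. They are Scd1, Scd3, Fasn, Elovl3, Far2, Awat1, Awat2, Cidea, Mc5r and Mgst1, chosen as a named list and found by matching their Ensembl identifiers, and all 10 were present among the 41388 gene identifiers of the count tables. Ear skin of wild-type adult C57Bl/6 mice was sequenced in 8 libraries. The 4 vehicle libraries came from mice given ethanol, and the 4 MC903 libraries from mice given calcipotriol (MC903), an analog of vitamin D, on the skin at 1 nmol each day for 12 days. The labels give the source as whole ear, so each library mixes epidermis, glands, hair follicles, fat, muscle and blood cells, and sex is not stated. The design names 4 mice per group, as many as there are libraries. In such bulk tissue, fewer cells of a type and less RNA per cell cannot be told apart.

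Sebocytes, the cells of the gland, fill with lipid droplets as they mature and then burst to release them, so the gland is constantly rebuilt from its edge. Fatty acids are synthesised, desaturated and elongated, some are reduced to fatty alcohols, and acyltransferases join acids and alcohols into wax esters or load them onto glycerol as triglycerides. Mice that lack the desaturase Scd1 have shrunken sebaceous glands and a dry, scaly skin, and mice that lack the receptor Mc5r secrete less sebum.

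Library totals ran from 12310466 to 16837221 counts, and 16105 genes passed the filter on low counts. Levels are given as CPM, counts scaled to a common library size, with TMM factors that correct for differences in library composition. Vehicle replicate 2 stood apart: the salivary gland gene Bpifa2 took 24.5% of its counts, and 11 salivary gland markers summed to 384948 CPM there against 203 to 479 CPM in the other 7 libraries. The epidermal keratinocyte markers that define the labelled tissue were abundant in every library, with a summed level of 10766 to 17957 CPM. Nothing in the labels gives a batch.

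Of the 10 sebaceous gland lipid genes, 7 fell after MC903 (Scd1, Scd3, Fasn, Far2, Cidea, Mc5r and Mgst1), none rose, and Elovl3, Awat1 and Awat2 did not pass the test. The reads of Scd3 may in part be those of Scd1, as described with its values. A gene was called when its adjusted p (edgeR quasi-likelihood test, Benjamini-Hochberg over all genes tested) was under 0.05. Among all genes tested 20.2% were called lower and 21.3% higher, or 41.5% in either direction. The log2 fold changes were negative for 10 of 10 genes with a median of -0.96, beside a median of -0.03 and 52.4% negative values over all genes tested. In 4 of the 10 genes all MC903 libraries lay below all vehicle libraries, which was so for 18.9% of all genes tested, and none had all MC903 libraries above, as 19.8% of all genes did. Without vehicle replicate 2 the count of lower calls was 6, because Mgst1 lost its call, and the log2 fold changes of the other 6 called genes were then between -1.35 and -0.84.

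**Figure D1:**
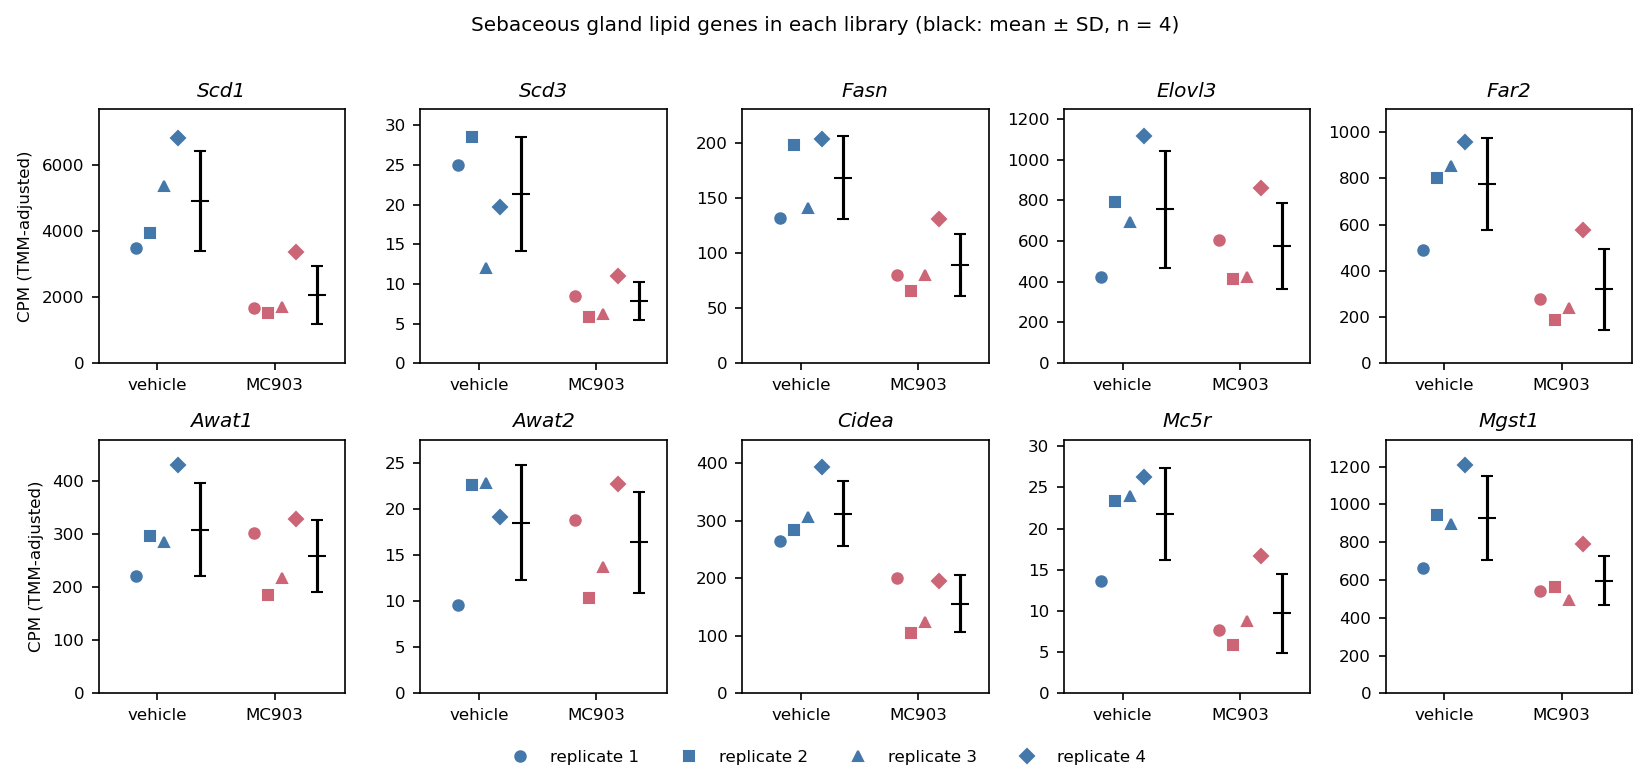
Level of each of the 10 sebaceous gland lipid genes in TMM-adjusted CPM (vertical axes from 0) in the 4 vehicle (blue) and 4 MC903 (red) libraries, with a marker shape for each replicate and the mean ± SD in black. Scd1, Scd3, Fasn and Cidea have every MC903 value below every vehicle value, while Awat1 and Awat2 have similar means in both groups.

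The desaturases and the synthase were compared first. Scd1 and Scd3 put the first double bond into saturated acyl chains, Scd3 with a preference for the shorter palmitoyl chain. They lie near each other on chromosome 19 among 4 Scd genes of similar sequence, and reads of 50 bases cannot always be assigned to one of them. The longest stretch shared by their coding sequences was 185 bases, at coding bases 475 to 659 of Scd3 (chr19:44235804-44238387, GRCm38, plus strand, across an exon junction) and at chr19:44400363-44401865 on the minus strand in Scd1. It is shown because a read from inside it fits both genes, and the capitals mark the 125 bases that Scd2 holds as well:
Scd3 and Scd1: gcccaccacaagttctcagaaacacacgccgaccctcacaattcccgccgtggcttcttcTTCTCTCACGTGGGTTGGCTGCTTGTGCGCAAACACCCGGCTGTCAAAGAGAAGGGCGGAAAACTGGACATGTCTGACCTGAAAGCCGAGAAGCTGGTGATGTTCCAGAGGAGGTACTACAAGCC

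Of all 50-base windows in the transcripts, 4.61% of those of Scd1 and 6.57% of those of Scd3 occurred in the transcripts of another gene, so most windows of each gene were its own. How the authors treated reads with several matches was not given in the sources used here, and the windows that Scd1 shares with Scd3 were 3.45% of its own. Mean vehicle levels were 4910.3 CPM for Scd1 and 21.3 CPM for Scd3. Scd1 reads counted for Scd3, if there were any, could make up an unknown part of the level and fold change of Scd3. How large a part was not tested. The values of Scd3 are given with that limit.

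Scd1 (ENSMUSG00000037071, chr19:44394451-44407709, mm10, minus strand) was at 3480.5, 3943, 5375 and 6843 CPM in vehicle replicates 1 to 4 and at 1683, 1512, 1705 and 3379 CPM in MC903 replicates 1 to 4. The highest MC903 library lay just under the lowest vehicle library. The mean level fell from 4910.3 ± 1520.0 CPM (SD, n = 4) to 2069.9 ± 877 CPM (SD, n = 4), a log2 fold change of -1.25 ± 0.31 (SE) with an edgeR adjusted p of 0.00789. Scd1 alone made up 45.1 to 62.4% of the counts of the 10 genes in a library, and the 10 together made up 0.297 to 1.26% of a library's counts.

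Scd3 (ENSMUSG00000025202, chr19:44203288-44244016, plus strand) was measured at 25.04, 28.5, 12.0 and 19.7 CPM in the vehicle libraries and at 8.50, 5.83, 6.16 and 10.95 CPM in the MC903 libraries. The groups did not overlap, though vehicle replicate 3 and MC903 replicate 4 were close. Its log2 fold change of -1.44 ± 0.28 (edgeR adjusted p = 0.00178) came with means of 21.3 ± 7.19 CPM in vehicle and 7.86 ± 2.38 CPM in MC903 (SD, n = 4). Within a library, the ratio of Scd3 to Scd1 in counts per kilobase changed by -0.14 on the log2 scale (2-sided exact permutation p = 0.771; adjusted over 5 ratios, 0.771), less than its spread between libraries. That ratio was 0.0100, 0.0101, 0.00311 and 0.00402 in vehicle replicates 1 to 4. It was 0.00704, 0.00538, 0.00504 and 0.00452 in MC903 replicates 1 to 4.

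Fasn encodes fatty acid synthase, which builds palmitate, the substrate of the desaturases and elongases (ENSMUSG00000025153, chr11:120805940-120824178, minus strand). Its level was 132, 198, 141 and 204 CPM in the vehicle libraries and 80.2, 65.4, 80.2 and 131 CPM in the MC903 libraries. The groups did not overlap, but MC903 replicate 4 reached nearly the level of vehicle replicate 1. The log2 fold change was -0.92 ± 0.22 (edgeR adjusted p = 0.00712).

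Elovl3 encodes an elongase that lengthens fatty acids for the neutral lipids of the gland (ENSMUSG00000038754, chr19:46131897-46135307, plus strand). Its level was 421, 790.2, 695 and 1117 CPM in the vehicle libraries against 605, 411, 423 and 859.8 CPM in the MC903 libraries. The groups overlapped widely, as the lowest vehicle value was close to the lowest MC903 values. The log2 fold change of -0.39 ± 0.31 did not pass the test (edgeR adjusted p = 0.330).

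Far2, one of the pair of reductases that turn acyl chains into fatty alcohols for wax esters, lies at chr6:148047259-148182758 on the plus strand (ENSMUSG00000030303). It was at 492, 800.3, 856 and 956 CPM in the vehicle libraries and at 279, 187, 239 and 577 CPM in the MC903 libraries. All MC903 libraries but replicate 4 lay below every vehicle library. The mean fell from 776 ± 200.1 to 320.2 ± 175 CPM (SD, n = 4), with a log2 fold change of -1.28 ± 0.34 (edgeR adjusted p = 0.0109). Of its 5253 exonic bases, 837 (15.9%) overlap Ergic2 on the opposite strand, and without a stated strand setting those reads cannot be split. Ergic2 itself was at 83.8 ± 12.0 CPM in vehicle and 82.4 ± 8.92 CPM in MC903 (SD, n = 4).

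The paralog Far1, which serves the synthesis of ether lipids in most tissues, was at 105 ± 16.9 CPM in vehicle and 123 ± 48.2 CPM in MC903 (SD, n = 4) and did not pass the test (log2 fold change 0.23 ± 0.27, edgeR adjusted p = 0.508). Far1 was called higher on leaving out MC903 replicate 1. Per kilobase, Far2 exceeded Far1 by 8.65, 13.1, 11.5 and 11.9 times in the vehicle libraries and by 7.28, 2.11, 2.98 and 5.06 times in the MC903 libraries. The ratio was lower in each MC903 library than in any vehicle library, a mean log2 difference of -1.51. The 2-sided exact permutation p of 0.0286 is the smallest that 4 against 4 libraries allow, and after adjustment over the 5 ratios it was 0.0714.

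Awat1 and Awat2 encode the acyltransferases that join fatty alcohols to fatty acids as wax esters, and they lie near each other on chromosome X. Awat1 (ENSMUSG00000015665, chrX:100572251-100578205, plus strand) was at 222, 295, 284 and 429.5 CPM in the vehicle libraries and at 301, 185, 217 and 328 CPM in the MC903 libraries. Awat2 (ENSMUSG00000031220, chrX:100402221-100442717, minus strand) was at 9.60, 22.6, 22.9 and 19.1 CPM in vehicle and at 18.8, 10.3, 13.8 and 22.7 CPM in MC903. The groups overlapped for both genes, and vehicle replicate 1 had the lowest vehicle value of each. Their log2 fold changes were -0.25 ± 0.24 for Awat1 (edgeR adjusted p = 0.408) and -0.17 ± 0.29 for Awat2 (edgeR adjusted p = 0.654), and neither passed the test under any alternative tried. The ratio of Awat2 to Awat1 within a library differed between groups by 0.09 on the log2 scale (2-sided exact permutation p = 0.686; adjusted over 5 ratios, 0.771).

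Cidea encodes a protein on the surface of lipid droplets that promotes their fusion into larger ones. On chromosome 18 (chr18:67343564-67367794, plus strand), it was measured at 265, 284, 306 and 393 CPM in the vehicle libraries and at 201, 104, 124 and 195 CPM in the MC903 libraries. No MC903 library reached the lowest vehicle library. The mean level fell from 312 ± 56.6 to 156 ± 49.0 CPM (SD, n = 4), a log2 fold change of -1.0 ± 0.23 (edgeR adjusted p = 0.00482). Cidea is also a gene of brown fat, where it accompanies the uncoupling protein Ucp1. Ucp1 had 2 counts in all vehicle libraries summed and 13 in all those given MC903. The list of 7 brown adipocyte markers summed to 71.5 to 185 CPM in vehicle and 68.4 to 144 CPM in MC903. The part of brown fat in the level of Cidea was not tested.

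Mc5r, the melanocortin receptor of the gland (chr18:68337603-68339711, plus strand), was at 13.6, 23.4, 24.0 and 26.2 CPM in the vehicle libraries and at 7.69, 5.83, 8.75 and 16.6 CPM in the MC903 libraries. The groups overlapped only through vehicle replicate 1 and MC903 replicate 4. Its log2 fold change was -1.17 ± 0.30 (edgeR adjusted p = 0.00981).

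Mgst1 encodes a membrane-bound glutathione transferase used as a marker of maturing sebocytes (ENSMUSG00000008540, chr6:138140316-138156755, plus strand). Its values were 663, 946, 895 and 1206 CPM in the vehicle libraries and 545, 565, 492 and 789 CPM in the MC903 libraries. The groups overlapped, since MC903 replicate 4 lay above vehicle replicate 1. The log2 fold change of -0.63 ± 0.22 passed the test narrowly (edgeR adjusted p = 0.0384). The call was lost when any of 6 libraries was left out (vehicle replicates 2, 3 or 4, with adjusted p of 0.0614, 0.0647 and 0.113, and MC903 replicates 1, 2 or 3, with 0.0706, 0.0940 and 0.119).

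Levels of different genes were compared per kilobase of exon (RPKM from the TMM-adjusted CPM). In vehicle skin the order of the means was Scd1 at 1015 ± 314 RPKM, Elovl3 at 506 ± 192, Mgst1 at 461 ± 111, Cidea at 268 ± 48.6, Awat1 at 221 ± 63.0, Far2 at 148 ± 38.1, Mc5r at 18.8 ± 4.82, Fasn at 17.1 ± 3.81, Awat2 at 8.73 ± 2.92 and Scd3 at 6.14 ± 2.07 RPKM (SD, n = 4). The neighbours Elovl3 and Mgst1, Cidea and Awat1, Mc5r and Fasn, and Awat2 and Scd3 lay within their spread of each other. In MC903 skin the means were Scd1 at 428 ± 181 RPKM, Elovl3 at 385 ± 140.4, Mgst1 at 297 ± 65.1, Awat1 at 185 ± 48.7, Cidea at 134 ± 42.1, Far2 at 61.0 ± 33.3, Fasn at 9.05 ± 2.89, Mc5r at 8.37 ± 4.10, Awat2 at 7.72 ± 2.57 and Scd3 at 2.27 ± 0.686 RPKM (SD, n = 4). The neighbours Scd1 and Elovl3, Elovl3 and Mgst1, Fasn and Mc5r, and Mc5r and Awat2 lay within their spread there. Cidea ranked above Awat1 in all 4 vehicle libraries and below it in all 4 MC903 libraries.

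Ratios between genes of one library do not depend on how libraries are scaled. Elovl3 stood at 0.392, 0.649, 0.418 and 0.528 of the level of Scd1 per kilobase in the vehicle libraries, and at 1.16, 0.880, 0.803 and 0.823 of it in the MC903 libraries. The groups did not overlap, the mean log2 ratio was 0.90 higher in MC903, and the 2-sided exact permutation p was 0.0286, or 0.0714 after adjustment over the 5 ratios. Fasn relative to Scd1 was 0.33 higher on the log2 scale with overlapping groups (exact permutation p = 0.229; adjusted over 5 ratios, 0.381). All 45 pairs of the 10 genes were then compared, a choice made after their values were seen. In 16 pairs the groups did not overlap, each with the smallest exact p possible (0.0286). The share among pairs of other genes was not computed. Of all single genes tested, 18.9% had all MC903 libraries below all vehicle libraries and 19.8% had them above. Together these shares are larger than the share of the 45 pairs that separated. After adjustment over the 45 pairs none was under 0.05 (0.0804 at the lowest). With that floor, passing depends on how many pairs separate, so the adjustment does not show that the ratios were alike.

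Awat1 was higher relative to 6 of the 9 other genes without overlap, Elovl3 relative to 5 and Awat2 relative to 4. Far2 was lower relative to 4 of the 9 others without overlap, and Scd1, Cidea and Mc5r relative to 3 each. These counts are descriptions, since the pairs share genes and no pair passed after adjustment. Awat1 per Cidea, for example, was 0.699, 0.870, 0.778 and 0.914 in the vehicle libraries and 1.25, 1.48, 1.47 and 1.41 in the MC903 libraries. Between Awat1 and Elovl3 the log2 ratio differed by 0.13 between groups, with overlapping values (exact permutation p = 0.457).

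**Figure D2:**
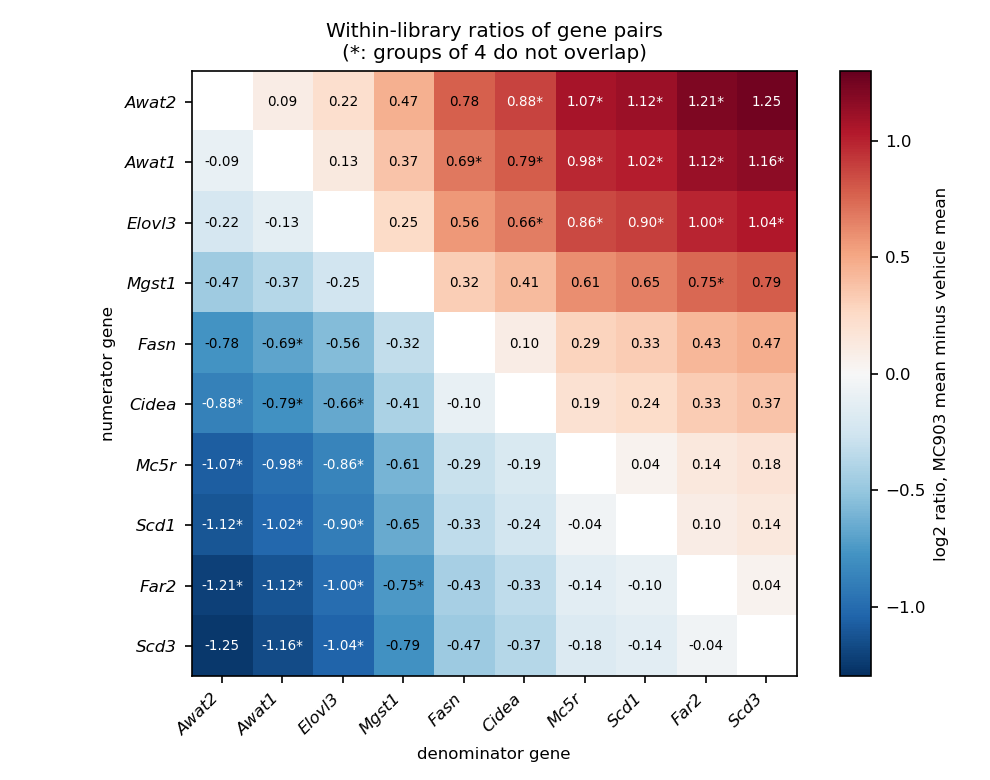
Difference between the MC903 and vehicle means of the log2 ratio of counts per kilobase, for each numerator gene (rows) and denominator gene (columns), with red for a higher and blue for a lower ratio in MC903 and an asterisk where the 4 values of each group do not overlap. The upper right block holds Awat2, Awat1 and Elovl3 against Cidea, Mc5r, Scd1, Far2 and Scd3, with differences of 0.66 to 1.25, of which that of Awat2 to Scd3 has no asterisk. Genes are ordered by their log2 fold change in these data, so higher ratios in that corner follow from the order.

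Within each group the 10 genes varied together. Vehicle replicate 4 had the highest vehicle value of 8 of the 10 genes and vehicle replicate 1 the lowest of 9. Among MC903 libraries, replicate 4 was highest for 9 genes and replicate 2 lowest for 9. Scd3 departed from this in vehicle skin, where replicate 2 was highest and replicate 3 lowest. The summed level of the 10 genes was 5723, 7332, 8609 and 11214 CPM in the vehicle libraries and 3729, 3051, 3309 and 6308 CPM in the MC903 libraries, so MC903 replicate 4 lay above vehicle replicate 1.

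**Figure D3:**
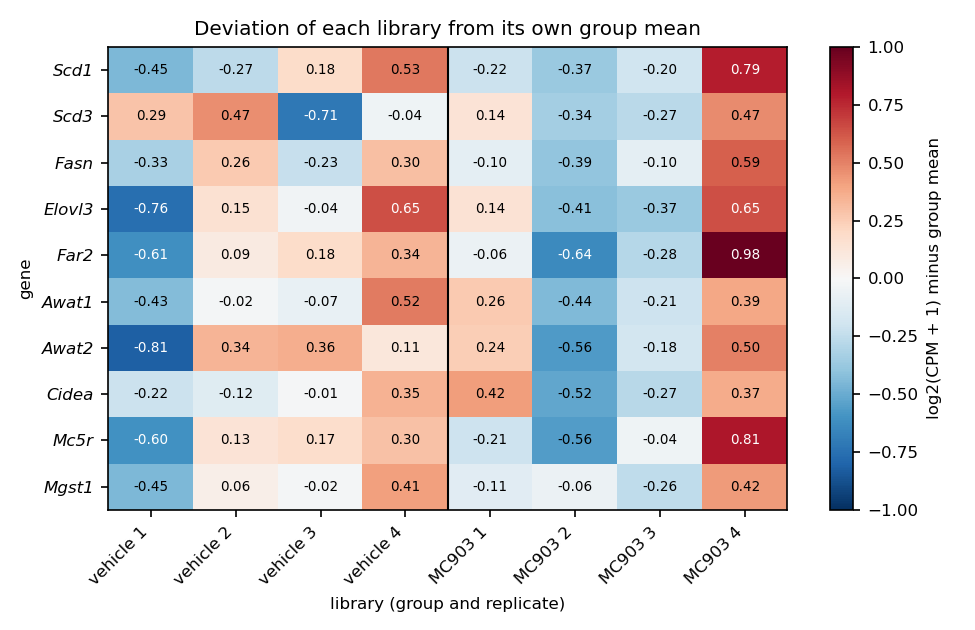
Deviation of each library (columns) from the mean of its own group for each gene (rows), on the log2(CPM + 1) scale, with red above and blue below the group mean. The columns of vehicle replicate 1 and MC903 replicate 2 are blue for 9 and 10 of the 10 genes, and that of MC903 replicate 4 is red for all 10.

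As a description over the same 8 libraries, which share their depth and tissue makeup between genes, deviations from the group mean on the log2(CPM + 1) scale were correlated for each pair of genes. The Pearson coefficient was 0.61 to 0.97 over the 36 pairs without Scd3 and 0.09 to 0.59 over the 9 pairs with it. The highest value, 0.97, was that of Far2 and Mc5r. Of 13000 other genes compared with the mean of the 10, the most alike were Dtx4 (0.99), Adtrp (0.99), Acox2 (0.99), Tmem164 (0.99) and Masp1 (0.98), each over 8 libraries. Dtx4 fell after MC903 (log2 fold change -0.75 ± 0.16, edgeR adjusted p = 0.00319), as did Tmem164 (-0.85 ± 0.22, edgeR adjusted p = 0.00879). The other 3 did not pass the test, with log2 fold changes of -0.14 ± 0.19 for Adtrp, -0.24 ± 0.24 for Acox2 and -0.16 ± 0.35 for Masp1 (edgeR adjusted p of 0.589, 0.438 and 0.742).

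Other genes of the same pathways were counted from lists chosen with results of these data known, and these counts are descriptions. In fatty acid synthesis, elongation and desaturation, 9 of 19 genes tested were lower and 1 higher, with a median log2 fold change of -0.48, and 5 were lower without vehicle replicate 3 or without MC903 replicate 3. Srebf1, the transcription factor that drives lipid synthesis genes, fell from 79.1 ± 11.2 to 37.2 ± 1.73 CPM (SD, n = 4; log2 fold change -1.09 ± 0.13, edgeR adjusted p = 5.98e-05). Acacb, an acetyl-CoA carboxylase of mitochondria, fell by 1.44 ± 0.24 on the log2 scale (edgeR adjusted p = 0.000744).

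The paralogs of the listed desaturases and elongases did not all move alike. Elovl5, an elongase of polyunsaturated chains, fell (log2 fold change -1.28 ± 0.26, edgeR adjusted p = 0.00266), while Elovl7 rose (0.75 ± 0.17, edgeR adjusted p = 0.00444). Elovl1, Elovl4 and Elovl6 did not pass the test, with log2 fold changes of -0.17 ± 0.20, -0.04 ± 0.24 and -0.62 ± 0.26. Of these, Elovl6 was called lower in 3 of 11 alternatives (DESeq2, the replicate block, and leaving out MC903 replicate 4). Scd2, the desaturase of brain and many other tissues, had a log2 fold change of -0.46 ± 0.14 (edgeR adjusted p = 0.0222), and its call was lost in 5 of 11 alternatives, which were library sizes alone, the replicate block, and leaving out vehicle replicate 3, MC903 replicate 3 or MC903 replicate 4. Scd4, at 2.03 ± 0.393 CPM in vehicle (SD, n = 4), did not pass (-0.91 ± 0.40, edgeR adjusted p = 0.0902), but was called lower on leaving out MC903 replicate 4.

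In wax, sterol ester and triglyceride synthesis, 5 of 13 genes tested were lower and 3 higher, with a median of -0.32. The triglyceride enzymes Dgat2 (log2 fold change -0.72 ± 0.16), Lpin1 (-1.02 ± 0.20) and Mogat1 (-0.91 ± 0.19) fell, each with an edgeR adjusted p between 0.00227 and 0.00370. Lpin2, a second phosphatidate phosphatase, rose (0.76 ± 0.14, edgeR adjusted p = 0.00163). Dgat2l6, a close relative of Awat1 and Awat2, had a log2 fold change of -0.55 ± 0.20 (edgeR adjusted p = 0.0447), and its call was lost in 5 of 11 alternatives, on leaving out vehicle replicate 3 or 4 or MC903 replicate 1, 2 or 3. The other 2 higher genes, named after their values were seen, were Gpat3 (0.75 ± 0.19) and Soat2 (1.19 ± 0.41), and Soat2, at 0.443 ± 0.201 CPM in vehicle (SD, n = 4), lost its call in 6 of 11 alternatives (library sizes alone, the replicate block, and leaving out vehicle replicate 2, 3 or 4 or MC903 replicate 3).

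Among lipid droplet coat proteins and lipases, 6 of 13 genes tested were lower and 1 higher, with a median of -0.62. Plin1 and Plin4, perilipins that coat the droplets of fat cells, had log2 fold changes of -1.58 ± 0.34 and -1.39 ± 0.23 (edgeR adjusted p = 0.00375 and 0.000643). The lipase Pnpla2 fell (-0.96 ± 0.23, edgeR adjusted p = 0.00592), and its activator Abhd5 rose (0.73 ± 0.13, edgeR adjusted p = 0.000870). Cidec, the relative of Cidea found in white fat, had a log2 fold change of -1.36 ± 0.43 (edgeR adjusted p = 0.0261), a call lost on leaving out vehicle replicate 2, or replicate 2 or 3 of MC903. Cideb did not reach the count filter.

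Around Mc5r, none of the 4 melanocortin genes tested was called (Mc1r, Mc2r, the receptor accessory protein Mrap and the antagonist Agrp), with a median of -0.52, and 1 (Mc2r) was called lower without MC903 replicate 4. The receptor gene Mc3r had no count in any library. Of the genes related to Mgst1, 3 of 10 tested were lower and 4 higher. Gsta3 (log2 fold change -2.15 ± 0.19) and Gstm1 (-1.58 ± 0.16) fell, Gsta4 (3.26 ± 0.28) and the prostaglandin E synthase Ptges (1.89 ± 0.15) rose, and these 4 had edgeR adjusted p of 2.73e-05 or less. Mgst2 rose as well (0.63 ± 0.13, edgeR adjusted p = 0.00307), and Mgst3 did not pass the test (-0.05 ± 0.15, edgeR adjusted p = 0.816).

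Of 9 regulators and duct genes of the sebaceous gland, 6 were lower and 1 higher, with a median of -0.67, and 3 were lower without MC903 replicate 3. The steroid enzyme Hsd3b6 (log2 fold change -1.13 ± 0.26, edgeR adjusted p = 0.00533) and the retinoid X receptor Rxrg (-1.3 ± 0.30, edgeR adjusted p = 0.00535) fell, and Prdm1, a repressor found in sebaceous gland cells, rose (0.70 ± 0.18, edgeR adjusted p = 0.00908). Rxra, the retinoid X receptor of most tissues, was at 95.7 to 111 CPM in the vehicle libraries and at 71.0 to 82.8 CPM in the MC903 libraries, with no overlap (log2 fold change -0.41 ± 0.11, edgeR adjusted p = 0.0127), and its call was lost with library sizes alone (adjusted p = 0.0638). Pparg, the nuclear receptor that drives sebocyte and fat cell maturation and is named after its value was seen, had a log2 fold change of -0.99 ± 0.28 (edgeR adjusted p = 0.0153) and lost its call without MC903 replicate 3. Krt79, a keratin of the gland's duct, did not pass the test (0.14 ± 0.29, edgeR adjusted p = 0.718).

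**Figure D4:**
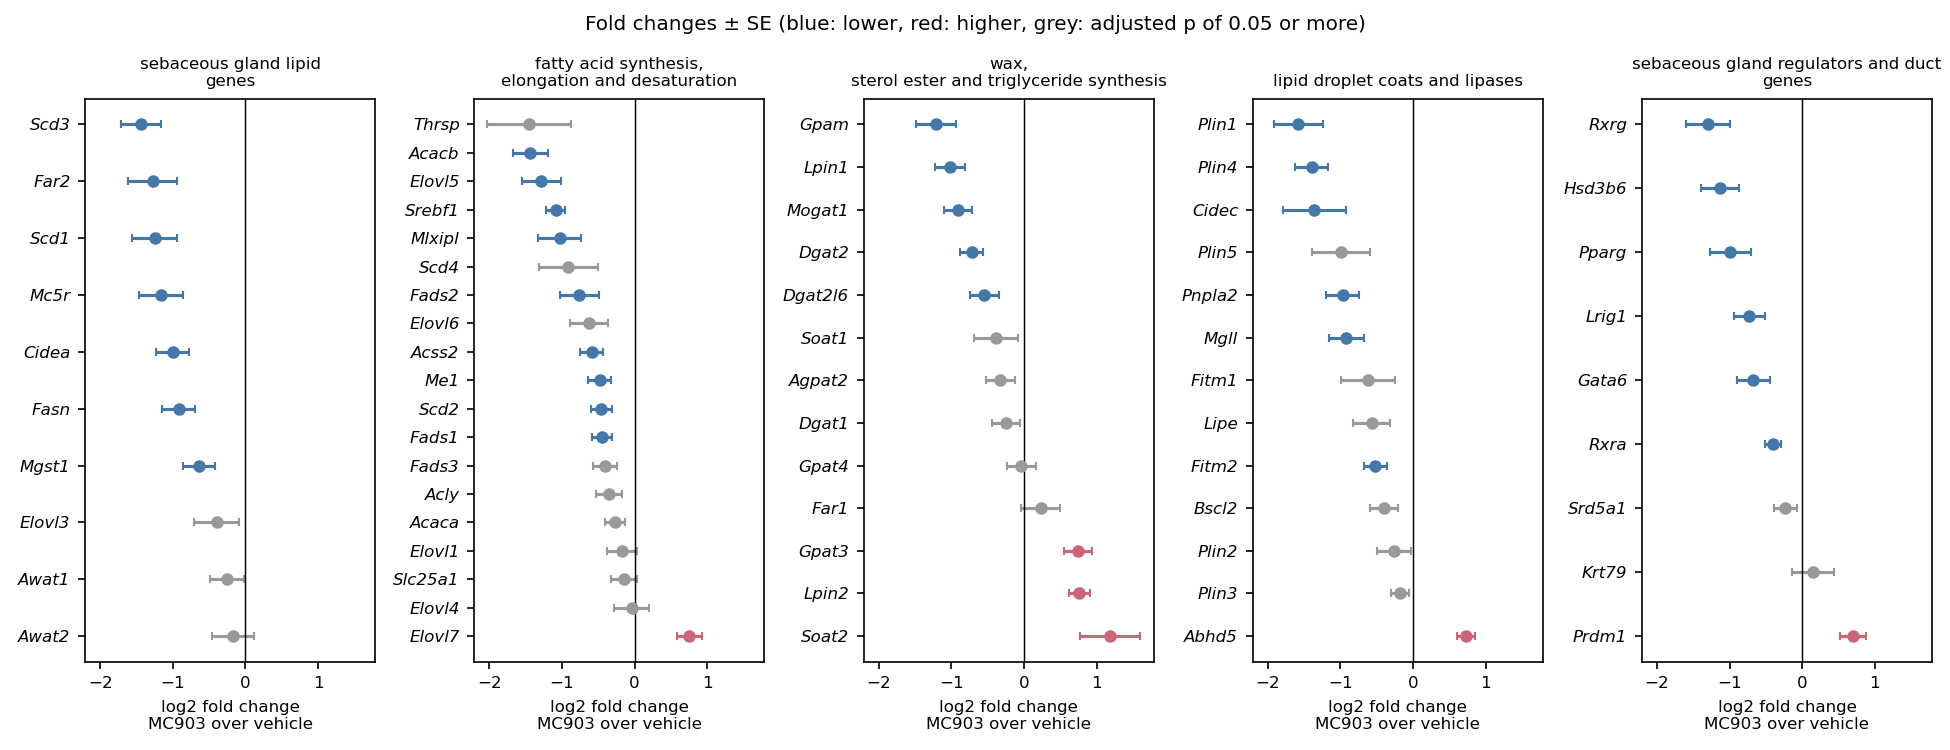
Log2 fold change (MC903 over vehicle, ± SE, horizontal axes) of the 10 sebaceous gland lipid genes and of the tested genes of 4 related lists, 4 libraries per group, with blue for genes called lower, red for genes called higher and grey for genes not called. In the first panel all 10 points lie left of 0 and 7 are blue, while each of the other 4 panels has at least 1 red point.

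Markers of other cell types were counted in the same way, to be read beside the 20.2% of all genes called lower and 21.3% called higher. The pathway and marker lists share some genes, so their counts are not fully separate. White adipocytes also express Scd1 and Fasn, and of 12 white adipocyte markers 7 were lower and none higher (12 lower with library sizes alone, and 3 lower on leaving out vehicle replicate 2, or replicate 2 or 3 of MC903). Their summed level was 3154 to 8339 CPM in vehicle, highest in replicate 2, and 1234 to 3399 CPM in MC903, highest in replicate 4. The fat cell gene Car3 fell (log2 fold change -1.49 ± 0.37, edgeR adjusted p = 0.00788), and Fabp4 had a log2 fold change of -0.79 ± 0.34 without a call (edgeR adjusted p = 0.0865). Fabp4 was called lower in 3 of 11 alternatives (library sizes alone, DESeq2, and leaving out MC903 replicate 4). No defining white adipocyte marker was at 0.

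Of 9 leukocyte markers 8 were higher and none lower, with summed levels of 323 to 377 CPM in vehicle and 791 to 1563 CPM in MC903. MC903 replicate 4, which held the highest levels of 9 of the sebaceous gland lipid genes among MC903 libraries, had the lowest leukocyte sum. Of 12 hair follicle markers tested 9 were lower (6 with the replicate block or without vehicle replicate 4) and 2 higher. Their summed level was nevertheless higher in every MC903 library (402 to 949 CPM) than in any vehicle library (71.1 to 248.7 CPM), and one of the higher genes, Tchh, had a mean of 712 ± 239 CPM in MC903 against 32.9 ± 28.1 CPM in vehicle (SD, n = 4). Of 10 keratinocyte markers 1 was lower and 3 higher, and of 10 skeletal muscle markers 3 were lower (0 to 8 when single libraries were left out). Of 4 brown adipocyte markers tested none was lower and 1 was higher, with 0 to 2 lower when single libraries were left out (2 without replicate 4 of either group) and 1 lower with library sizes alone or DESeq2. All 7 salivary gland markers tested were called lower by edgeR, against 1 without vehicle replicate 2, and 0 with DESeq2 or with the replicate block. The part of these other cell types in the levels of the sebaceous gland lipid genes was not tested.

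**Figure D5:**
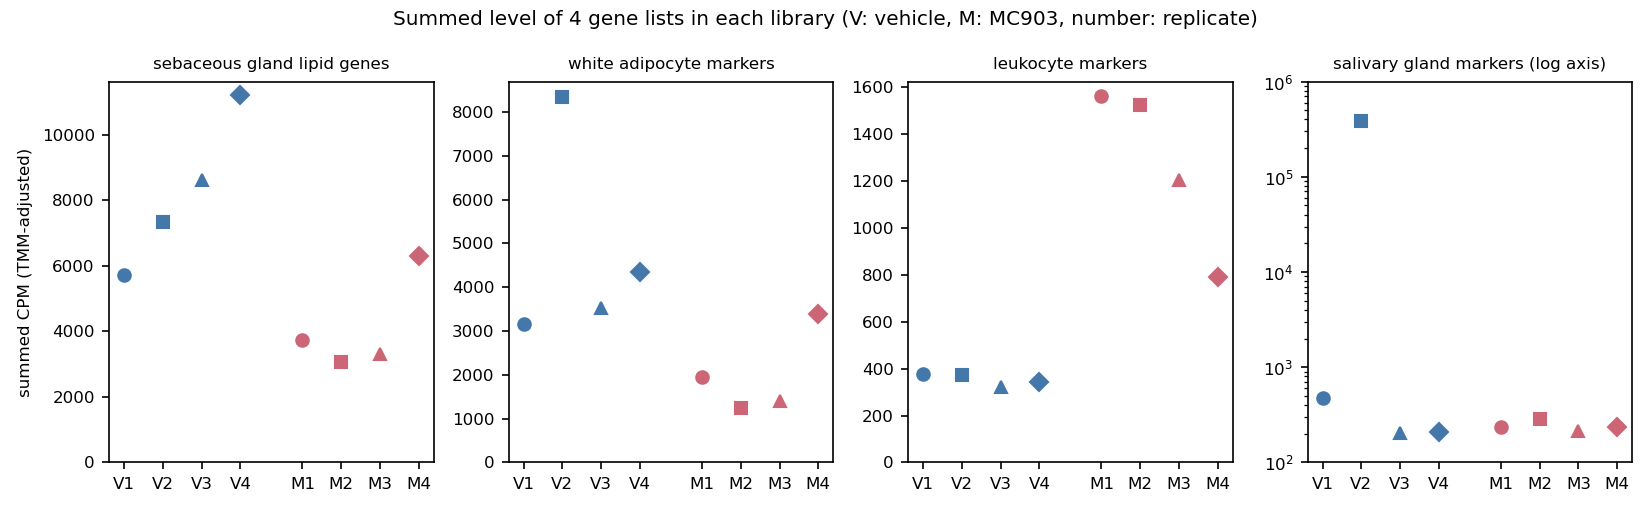
Summed TMM-adjusted CPM of the 10 sebaceous gland lipid genes and of 3 marker lists in each library (V1 to V4 vehicle, M1 to M4 MC903), with the salivary gland panel on a log axis. The sebaceous gland lipid genes and white adipocyte markers are both highest in M4 among MC903 libraries, leukocyte markers are lowest there, and salivary gland markers stand out in V2.

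Upstream sequence was compared last, since 7 of the 10 genes fell and 3 did not pass the test. Of the 10, 6 have an entry in the RefSeq promoter table (GRCm38.p6). The 250 bases before the RefSeq start are shown for Scd3 and Fasn, which fell, and for Awat1 and Awat2, which did not pass the test, with capitals for the CCAAT box (CCAAT, or ATTGG on the other strand):
Scd3, chr19:44203038-44203287, plus strand: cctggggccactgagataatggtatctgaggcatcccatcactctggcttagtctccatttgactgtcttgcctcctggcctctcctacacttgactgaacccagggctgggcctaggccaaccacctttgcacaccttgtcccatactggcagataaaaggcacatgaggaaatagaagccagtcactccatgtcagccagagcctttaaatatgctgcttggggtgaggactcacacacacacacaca
Fasn, chr11:120824548-120824797, minus strand: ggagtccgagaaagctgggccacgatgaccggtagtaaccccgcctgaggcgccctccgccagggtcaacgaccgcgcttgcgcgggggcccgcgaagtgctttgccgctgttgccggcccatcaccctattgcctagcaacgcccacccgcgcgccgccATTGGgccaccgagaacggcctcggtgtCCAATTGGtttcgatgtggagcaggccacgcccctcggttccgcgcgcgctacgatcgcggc
Awat1, chrX:100571997-100572246, plus strand: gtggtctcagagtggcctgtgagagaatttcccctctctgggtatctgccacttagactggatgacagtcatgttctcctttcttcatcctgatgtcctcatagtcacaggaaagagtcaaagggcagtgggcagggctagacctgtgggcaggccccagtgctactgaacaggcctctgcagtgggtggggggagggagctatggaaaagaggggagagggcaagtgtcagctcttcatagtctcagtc
Awat2, chrX:100442718-100442967, minus strand: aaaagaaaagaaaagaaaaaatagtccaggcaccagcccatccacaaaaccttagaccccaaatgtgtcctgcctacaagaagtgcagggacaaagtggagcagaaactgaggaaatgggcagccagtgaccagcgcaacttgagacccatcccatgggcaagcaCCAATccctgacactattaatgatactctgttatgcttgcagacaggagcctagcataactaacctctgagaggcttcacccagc

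The RefSeq start of Fasn lies upstream of the gene's start in the deposited annotation, which is at 120824178 on the minus strand. The bases between that deposited start and the window shown were not searched. Searched on both strands, the Fasn window held 3 CCAAT boxes and the Awat2 window shown 1, with 1 more in the window of the other Awat2 start in the table, and 33.8% of the 32851 promoters in the table hold at least 1. The Fasn boxes at 62 to 58 and at 59 to 55 bases before the RefSeq start overlap on opposite strands. The sterol regulatory element TCACNCCAC (1.05% of promoters), the E box CACGTG (6.02%), the TATA box TATAAA (12.4%), a pair of AGGTCA letters 1 base apart (0.0335%) and a pair of AGTTCA letters 3 bases apart (0%) were not found in the windows of the 6 genes. The windows of the table also cover the first 50 bases after the start. These matches describe letters in these windows only.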

How the data were processed

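RNA of whole ear skin was ribosome-depleted, primed with random hexamers and sequenced as single 50-base reads, per the labels' protocols. The authors deposited whole-number read counts per Ensembl gene for each library. Per the submitters' processing notes, STAR 2.0.4b and featureCounts 1.4.5 of Subread were used with mm10. The annotation release, strand setting and handling of multiple matches were absent from the sources used here, and no step of the protocol marks strand, so antisense overlaps cannot be split.

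Of 41388 identifiers, 40254 were given symbols from a table of gene names, and Asip was not matched. Counts were filtered with filterByExpr by group, scaled with TMM factors (0.775 in vehicle replicate 2, 0.953 to 1.13 elsewhere) and compared by the quasi-likelihood test of edgeR 4.0.16 under R 4.3.3 (all 8 libraries, group as the only term, Benjamini-Hochberg over 16105 genes). Standard errors of fold changes were derived from the F statistic. A count of 3, taken as the detection floor, was 0.171 to 0.250 CPM, and this covers counting error only. The design names as many mice as there are libraries. Libraries of a group differed by at least 10.1 in chi-square per degree of freedom, so all 8 were kept apart. Scaling alternatives moved the median over all genes by less than 0.1.

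The 10 genes and the lists were chosen with earlier results of these data known, and 1 list gene is not reported here. The text names all 10 genes, the 4 genes of smallest p and the close paralogs from each pathway list, some marker genes of smallest p or highest level, and the 5 genes most alike in pattern. Sequence was compared with GENCODE M21 transcripts and RefSeq promoters, whose motifs were chosen after expression values were known. DESeq2 1.42.0, limma-voom (limma 3.58.1), other factors, other filters, a replicate block and leaving out each library were alternatives. Ratios were tested by exact permutation of the group labels, computed with numpy 2.4.6. The fit was tested on simulated data.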

Additional observations from a re-analysis of the deposited data

Results flagged for a closer look

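Scd1 in MC903 replicate 4, at 3379 CPM, lay far above the other 3 MC903 libraries, at 1512 to 1705 CPM. The gap to the nearest of them was 0.897 of the group's range, beyond Dixon's critical value for 4 samples. It was the 1 such value in 30 groups of 4 examined, and chance marks about 1 group in 20. Without that library the log2 fold change of Scd1 was -1.58 and its call was kept.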

How the results depend on the processing

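Of the 10 sebaceous gland lipid genes, 6 or 7 were called lower in each of 16 alternatives, and none changed direction. Mgst1 was the gene whose call was lost, in 6 of the 8 fits that left out a library, where its log2 fold change ranged from -0.79 to -0.48 over all 8. Elovl3, Awat1 and Awat2 were not called in any alternative, with adjusted p of 0.106, 0.222 and 0.219 at the lowest. The log2 ratio of Scd3 to Scd1 ranged from -0.45 to 0.11 as libraries were left out, turning positive without vehicle replicate 1 or 2, and that of Awat2 to Awat1 from -0.054 to 0.24, turning negative without vehicle replicate 1 or 4. The cause was not tested. The called genes among all lists numbered 77, and 60 to 88 over the alternatives. With the replicate number as a block, 5705 genes were called over all genes against 6682, and 7 of the 10 sebaceous gland lipid genes, and exact permutation within replicate numbers cannot go below p = 0.125. No sign of pairing by number was seen: deviations of same-numbered libraries correlated at 0.08, -0.15, -0.15 and -0.20. Of 8 libraries, 0 correlated best with their own number. Such correlations cannot show that same-numbered libraries were handled apart. The lowest count of any of the 10 genes in a library was 70 (Scd3 and Mc5r in MC903 replicate 2).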
